A study of Rattus norvegicus with 16 samples.

Results

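The effect of inhaled diesel exhaust (DE) that the left ventricles of both rat strains had in common was taken from all 16 arrays, by setting the 8 DE arrays against the 8 air arrays with the strain as an additive term. All 15866 non-control probe sets of 15923 on the array entered the comparison. The rats were males, 12–14 weeks of age, of the spontaneously hypertensive (SH) strain or of the Wistar Kyoto (WKY) strain, its normotensive relative, and they breathed DE at 2 mg/m3 or filtered air on 5 days/week for 4 weeks. In the paper's methods this is the age at purchase, before acclimatization and exposure. The 4 groups were SH-DE, SH-air, WKY-DE and WKY-air, with 4 arrays each. The daily exposure is 6 hr in the sample labels and shorter in the paper. Ventricles with the septum were taken 1 day after the last exposure, and no other treatment of the rats is described.

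Diesel exhaust is a mixture of gases and soot particles that carry polycyclic aromatic hydrocarbons. Such hydrocarbons are ligands of the aryl hydrocarbon receptor, which induces cytochromes P450, and the reactive species that exhaust can give rise to are met by the antioxidant genes under the factor Nrf2. In the heart, exhaust is mostly studied for vascular tone, inflammation and the oxidative metabolism of the muscle, and many of the transcripts concerned also follow the circadian clock.

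Each array gave 1 signal per probe set, an intensity on a linear scale. The median signal of an array was 185–193 in SH-DE, 173–197 in SH-air, 209–216 in WKY-DE and 177–192 in WKY-air. The 4 WKY-DE arrays thus lay above all the others, and the part of this in the fold changes was not tested. Signals were compared as log2(signal + 16.1), where 16.1 is the 10th percentile of all values, so that fold changes of dim genes are understated. A probe set was called at a limma adjusted p under 0.05 (Benjamini-Hochberg over all 15866) with an unadjusted p under 0.01. Fold changes on the log2 scale had a standard error of 0.153 over both strains and 0.209 within a strain at the median, a precision limited by the number of arrays. The methods call the 4 arrays of a group biological replicates, and p-values measure the spread between them. They also describe 1 exposure chamber for each concentration, so a chamber difference cannot be told apart from DE. The p-values do not cover it. Of 6 ventricular markers measured, Myl2, Myl3, Tnnt2, Tnni3 and Myh6 were bright on every array by their brightest probe sets. Second probe sets of Myl2 and Tnnt2 were much dimmer, with mean signals of 328 and 63.2. Atrial markers were not absent, and on the mean log2 scale Myl7, Myl4 and Sln ran over 6.56–11.9 in SH-DE, 6.28–7.27 in SH-air, 7.69–12.3 in WKY-DE and 11.1–13.6 in WKY-air. The highest DE arrays were SH-DE replicate 3 and WKY-DE replicate 3, and the calls are also given without them.

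Over both strains Fzd2 and Sox10 fell and Lrch3, Trappc2, Etfbkmt and Chrnb1 rose with DE, together with a probe set that the annotation used does not name. These were the 7 probe sets called of 15866 (0.0441%), 5 higher (0.0315%) and 2 lower (0.0126%) in DE. All 7 had the same sign in SH and in WKY rats, which the choice by a fit over both strains favors. All 7 had the larger fold change in WKY rats. The share of all probe sets with the larger fold change in WKY rats is not given here, nor beside the like counts below. Within strains, limma gave an unadjusted p under 0.05 for 3245 probe sets in WKY and 977 in SH rats. At an unadjusted p under 0.05 there were 2168 probe sets (13.7%), 1451 higher (9.15%) and 717 lower (4.52%), and after quantile normalization of the arrays the split was 927 higher and 930 lower. The number called was 0 without SH-DE replicate 2, without WKY-air replicate 1, 3 or 4 and without any 1 of the 4 WKY-DE arrays, and 1813 to 2140 probe sets then had an unadjusted p under 0.05. It was 1 without SH-DE replicate 4, 3 without SH-air replicate 1 or 3 and 4 without SH-DE replicate 1. Without both DE arrays numbered 3 limma also called 0, with 2072 at an unadjusted p under 0.05. Leaving out the dimmest 40% of probe sets gave 37 calls among 9520, 25 higher and 12 lower in DE. All 37 had the same sign in both strains, which the choice by that fit again favors. Those included Chrna7, Nktr, Setmar, Tmco3, Suz12, Dbp and a probe set of Nr1d2 on the higher side and G0s2, Abhd16a, Gna12, Pgm1, Sptb, Rnf10, Zfp703 and Lipe on the lower side, which did not pass the test over all probe sets.

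Fzd2, a receptor of the frizzled family for Wnt proteins, had the lowest p. Its signal was 96.8, 50.2, 94.2 and 107 in SH-DE and 154, 165, 131 and 195 in SH-air. In the other strain it was 62.1, 78.3, 59.6 and 55.5 in WKY-DE and 263, 167, 165 and 253 in WKY-air. The DE arrays lay below the air arrays in each strain with no overlap. The group means were 87.05 ± 25.1 (SD, n = 4) in SH-DE, 161 ± 26.5 in SH-air, 63.9 ± 10.02 in WKY-DE and 212 ± 53.2 in WKY-air (DE over air −1.15 in log2 with SE 0.166, adjusted p = 0.0414 by limma). The fold changes within strains were −0.81 in SH and −1.49 in WKY rats, and the strain by DE interaction had an unadjusted p of 0.0342 and an adjusted p of 0.363 (limma). Fzd2 was still called in 8 of 16 fits that left out 1 array.

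Sox10, the transcription factor that neural crest cells and Schwann cells depend on, was the other gene to fall. It was dim, with 24.6, 20.1, 31.5 and 19.6 in SH-DE and 58.1, 32.6, 76.3 and 120.3 in SH-air. Signals of 28.4, 27.3, 20.6 and 34.6 in WKY-DE and 139, 50.03, 112 and 93.9 in WKY-air were measured in WKY rats. Each DE array was below each air array of its strain, and the air arrays spread widely. The means were 23.9 ± 5.51 in SH-DE, 71.8 ± 36.95 in SH-air, 27.7 ± 5.74 in WKY-DE and 98.7 ± 37.5 in WKY-air (DE over air −1.19 in log2 with SE 0.199, adjusted p = 0.0484 by limma), with fold changes of −1.05 in SH and −1.33 in WKY rats. With an offset at the 25th percentile of all values, 62.5, the fold change was −0.70, and with an offset of 1 it was −1.57. Sox10 belongs to the 6 Schwann cell markers measured, of which Gfap was at 0.39, S100b at 0.28, Mbp at −0.16, Pmp22 at −0.06 and Cnp at −0.05 on the log2 scale, none of them called. The summed signal of these markers was 1878–2541 in SH-DE, 1642–2131 in SH-air, 1899–2281 in WKY-DE and 1971–2849 in WKY-air. In RNA of whole tissue, fewer cells of a type and less RNA per cell cannot be told apart.

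Lrch3, a protein with leucine-rich repeats and a calponin homology domain, had the lowest p among the genes raised. The SH arrays gave 287, 246, 282 and 348 in SH-DE and 179.7, 220.5, 159.6 and 209 in SH-air. The WKY arrays gave 375, 360.1, 348 and 416 in WKY-DE and 229.7, 176, 254 and 224 in WKY-air. Every DE array exceeded every air array of its strain. Means of 291 ± 42.1 in SH-DE, 192 ± 27.7 in SH-air, 375 ± 29.8 in WKY-DE and 221 ± 32.5 in WKY-air were obtained (DE over air 0.64 in log2 with SE 0.0998, adjusted p = 0.0457 by limma). Trappc2, the sedlin subunit of the TRAPP complex that tethers transport vesicles, did not overlap between DE and air in either strain. It was 415, 551, 426 and 441 in SH-DE and 275, 277, 344 and 394 in SH-air. In WKY rats it was 474, 502, 479 and 525 in WKY-DE and 305, 313, 327 and 289.7 in WKY-air. The SH-DE and WKY-DE means, 458 ± 62.98 and 495 ± 23.2, stood above 323 ± 57.4 in SH-air and 309 ± 15.7 in WKY-air (DE over air 0.57 in log2 with SE 0.0922, adjusted p = 0.0464 by limma).

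Etfbkmt, known from human and mouse cells to methylate the mitochondrial electron transfer flavoprotein, was the brightest of the genes called. SH rats had 1449, 1559.8, 1325 and 1526 in SH-DE and 943, 1331, 1038 and 950.3 in SH-air. WKY rats had 1060.5, 1372, 1300.5 and 1115 in WKY-DE and 701, 799, 724 and 711 in WKY-air. In WKY rats DE and air did not overlap, and in SH rats SH-air replicate 2 lay just above the lowest SH-DE array. The group means were 1465 ± 104 in SH-DE, 1065 ± 182 in SH-air, 1212 ± 148 in WKY-DE and 734 ± 44.2 in WKY-air (DE over air 0.59 in log2 with SE 0.0949, adjusted p = 0.0464 by limma). Chrnb1, the β1 subunit of the nicotinic acetylcholine receptor of muscle, was dim, with 57.5, 39.3, 71.6 and 69.6 in SH-DE and 25.2, 17.6, 60.2 and 13.4 in SH-air. It was 64.05, 79.5, 55.5 and 48.5 in WKY-DE and 11.6, 12.4, 13.7 and 18.3 in WKY-air in WKY rats. SH-air replicate 3 lay among the SH-DE arrays, while the WKY groups were far apart. The means were 59.5 ± 14.9 in SH-DE, 29.1 ± 21.3 in SH-air, 61.9 ± 13.3 in WKY-DE and 14.02 ± 2.97 in WKY-air (DE over air 1.09 in log2 with SE 0.183, adjusted p = 0.0484 by limma) and its air means lie near the offset. The log2 fold change of Chrnb1 was 1.63 with an offset of 1 and 0.56 with an offset of 62.5. The probe set without a gene name was 44.1 ± 21.1 in SH-DE, 14.04 ± 5.75 in SH-air, 58.5 ± 15.5 in WKY-DE and 9.84 ± 3.56 in WKY-air (DE over air 1.22 in log2 with SE 0.182, adjusted p = 0.0414 by limma).

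**Figure D1:**
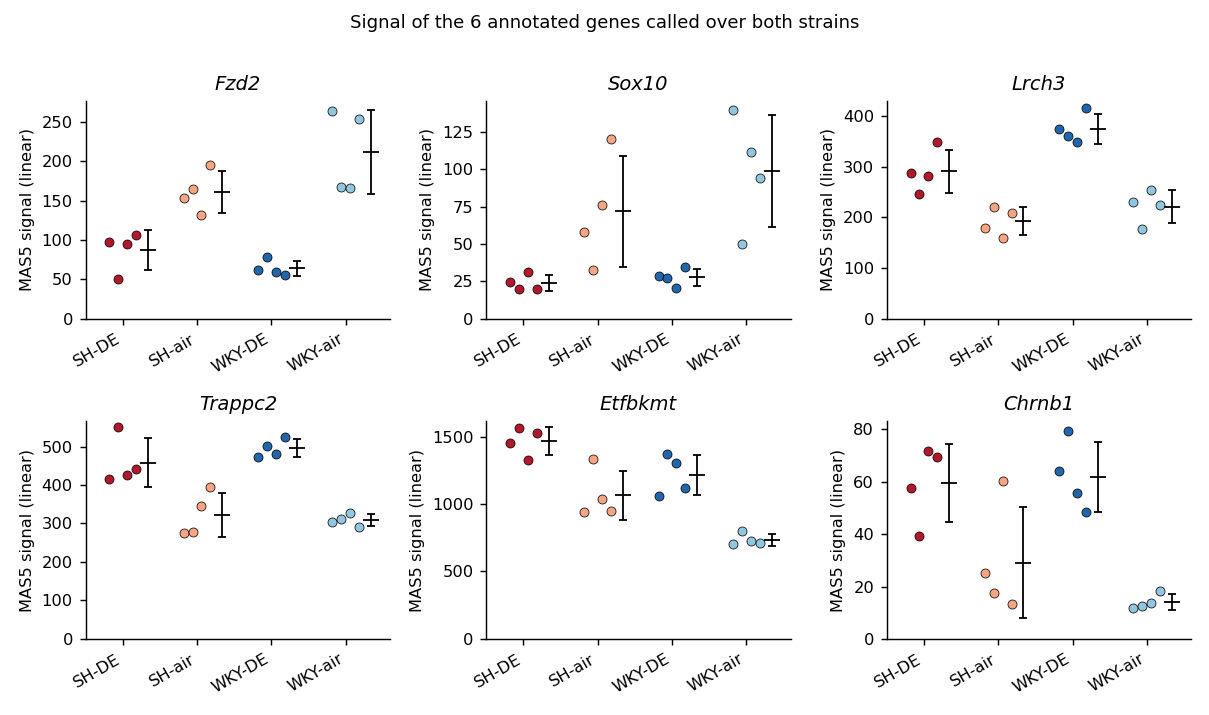
MAS5 signal on a linear axis of the 6 named genes called over both strains, by group from SH-DE to WKY-air. Points are single arrays, and the bar beside them is the mean with its SD (n = 4). Fzd2 and Sox10 are lower on all 8 DE arrays than on the air arrays of their strain, and Lrch3 and Trappc2 are higher on all 8.

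With 1 array left out at a time the sign of these 6 genes held in each of the 16 fits, and the fold changes stayed within −1.22 to −1.07 for Fzd2, −1.32 to −1.09 for Sox10, 0.59 to 0.68 for Lrch3, 0.54 to 0.62 for Trappc2, 0.55 to 0.65 for Etfbkmt and 1.02 to 1.24 for Chrnb1. The adjusted p did not hold as well. The call remained in 8 of the 16 fits for Fzd2, 4 for Lrch3, 3 for Sox10, 2 for Trappc2, 2 for Etfbkmt and 1 for Chrnb1, and the largest adjusted p was 0.132 for Fzd2 and 0.143 for Chrnb1. After quantile normalization Fzd2 (−1.25, adjusted p = 0.0297) and Lrch3 (0.57, adjusted p = 0.0485) were called by limma. With the mean atrial marker level as a covariate the 6 fold changes were nearly the same, for example −1.14 for Fzd2 and 1.07 for Chrnb1, and the adjusted p was 0.0519 and 0.0519. The median of that level was 8.21 in SH-DE, 6.55 in SH-air, 9.42 in WKY-DE and 12.2 in WKY-air. It was thus higher with DE in SH and lower in WKY rats, and had little room to move a fold change over both strains.

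Promoter sequence from RefSeq (build GRCr8) was matched to 15 of the 20 genes of lowest p, and it is shown for 3 of the genes that rose together, as the 250 bases before the annotated start. The motifs searched on both strands were the core GCGTG of the site for the aryl hydrocarbon receptor, the E-box CACGTG of the clock factors and the heat shock element GAANNTTC, and a match is printed in capitals.
Lrch3, chr11:81377338-81377587, minus strand: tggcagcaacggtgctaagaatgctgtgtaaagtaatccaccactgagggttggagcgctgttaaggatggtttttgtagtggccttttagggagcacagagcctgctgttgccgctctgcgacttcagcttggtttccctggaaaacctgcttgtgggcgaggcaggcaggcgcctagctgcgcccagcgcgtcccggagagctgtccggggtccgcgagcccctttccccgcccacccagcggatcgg
Trappc2, chrX:31646914-31647163, minus strand: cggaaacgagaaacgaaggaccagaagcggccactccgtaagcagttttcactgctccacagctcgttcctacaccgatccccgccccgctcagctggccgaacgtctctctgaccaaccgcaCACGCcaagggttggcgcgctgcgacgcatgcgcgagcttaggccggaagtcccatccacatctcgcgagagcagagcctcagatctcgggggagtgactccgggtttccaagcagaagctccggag
Chrnb1, chr10:55015108-55015357, minus strand: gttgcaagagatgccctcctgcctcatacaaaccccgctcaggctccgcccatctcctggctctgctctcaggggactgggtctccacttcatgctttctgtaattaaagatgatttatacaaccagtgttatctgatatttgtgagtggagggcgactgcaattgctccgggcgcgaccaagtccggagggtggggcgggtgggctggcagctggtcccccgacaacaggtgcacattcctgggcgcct
The promoter of Trappc2 holds GCGTG once, read on the opposite strand as CACGC, 127 bases before the start, and those of Lrch3 and Chrnb1 hold none of the motifs. Among the 15 promoters 8 held GCGTG, 1 held CACGTG and 0 held GAANNTTC, where 25.9%, 5.59% and 7.23% of all 33469 promoters of this length did. The share of G and C in the 15 ran from 48% to 72.8%. The promoters set beside them were not matched for it, so the counts do not show an excess of a motif. The CACGTG match lies in the promoter of Chrna7. A match is a description of these letters and not of a site in use.

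The next genes of lowest p with the same sign in both strains did not pass the test. Chrna7, the α7 subunit of the nicotinic receptor of nerve cells and macrophages, stood beside Chrnb1 of the same receptor family. It was 230.4, 141, 184 and 224 in SH-DE and 124, 69.6, 81.1 and 127 in SH-air. In WKY rats it was 133, 238, 194 and 241 in WKY-DE and 58.6, 112, 108 and 92.3 in WKY-air. The 8 DE arrays lay above all air arrays of their strain (DE over air 0.93 in log2 with SE 0.164, adjusted p = 0.0650 by limma), and the strains were close, at 0.87 in SH and 0.996 in WKY rats. Nktr, a cyclophilin-related protein first known from natural killer cells, had 274–394 in SH-DE, 143–289 in SH-air, 316–418 in WKY-DE and 153–264 in WKY-air (DE over air 0.82 in log2 with SE 0.145, adjusted p = 0.0650 by limma). Its DE arrays were apart from air except that SH-air replicate 2 lay within the SH-DE range. Setmar, a protein with a histone methyltransferase domain, did not overlap in either strain, with 255–310.4 in SH-DE, 189–217 in SH-air, 278–408 in WKY-DE and 166–215 in WKY-air (DE over air 0.54 in log2 with SE 0.0977, adjusted p = 0.0828 by limma).

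Suz12, a subunit of a Polycomb repressive complex, averaged 178 ± 31.3 in SH-DE, 109 ± 26.2 in SH-air, 215 ± 80.5 in WKY-DE and 71.6 ± 16.7 in WKY-air (DE over air 0.99 in log2 with SE 0.189, adjusted p = 0.0951 by limma). Tmco3, a membrane protein of the cation/proton exchanger family, averaged 548 ± 109.6 in SH-DE, 419.8 ± 60.3 in SH-air, 590.2 ± 23.3 in WKY-DE and 289 ± 23.6 in WKY-air (DE over air 0.68 in log2 with SE 0.127, adjusted p = 0.0947 by limma), and its fold change was 0.36 in SH and 0.99 in WKY rats, with an adjusted p of 0.255 for the interaction (limma). Hapln4, a link protein of hyaluronan matrix known from the brain, was very dim and ranged over 11.2–30.8 in SH-DE, 6.51–17.1 in SH-air, 30.5–42.00 in WKY-DE and 6.50–13.7 in WKY-air (DE over air 0.76 in log2 with SE 0.149, adjusted p = 0.105 by limma), with its other probe set at 0.33. Of the 10 genes of lowest p that were higher in DE, the fold changes ran over 0.36–0.87 in SH and 0.65–1.36 in WKY rats.

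Among the genes that were lower in DE, G0s2 and Lipe both act on stored fat, G0s2 as an inhibitor of adipose triglyceride lipase and Lipe as hormone-sensitive lipase. G0s2 was 683, 512, 758 and 843 in SH-DE and 992, 871, 1067 and 1096 in SH-air. In WKY rats it was 761, 774, 1079 and 689.5 in WKY-DE and 2310.0, 1904, 1364 and 1561 in WKY-air. No DE array reached the air arrays of its strain (DE over air −0.81 in log2 with SE 0.150, adjusted p = 0.0861 by limma), with fold changes of −0.53 in SH and −1.09 in WKY rats. Lipe was 340.4, 365, 196 and 342 in SH-DE and 560.2, 362, 597 and 521 in SH-air. The WKY values were 248, 219.9, 218 and 285 in WKY-DE and 374, 434, 301 and 405 in WKY-air. SH-DE replicate 2 overlapped the lowest SH-air array by a small margin, and the WKY groups were apart (DE over air −0.65 in log2 with SE 0.138, adjusted p = 0.105 by limma). Both genes passed the test when the dimmest 40% of probe sets were left out (adjusted p = 0.0280 for G0s2 and 0.0409 for Lipe, limma).

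Abhd16a, a phosphatidylserine lipase, did not overlap in either strain, with 1890.4–2522 in SH-DE, 2585–3108 in SH-air, 1385–1799.6 in WKY-DE and 2161–3047 in WKY-air (DE over air −0.56 in log2 with SE 0.106, adjusted p = 0.0951 by limma). Gna12, the α subunit of a G protein, had nearly the same fold change in both strains, −0.35 in SH and −0.38 in WKY rats, and no overlap, with 2487–2890.0 in SH-DE, 3210.3–3954 in SH-air, 1893–2122 in WKY-DE and 2406–2705 in WKY-air (DE over air −0.36 in log2 with SE 0.0718, adjusted p = 0.105 by limma). Its other probe set was at −0.44 in SH and −0.05 in WKY rats. Sptb, the β spectrin of the erythrocyte and muscle membrane skeleton, was also apart in each strain, with 373–622 in SH-DE, 675–723 in SH-air, 369–515 in WKY-DE and 618–856 in WKY-air (DE over air −0.54 in log2 with SE 0.110, adjusted p = 0.105 by limma). For Rnf10, a RING finger protein, the fold changes were −0.51 in SH and −0.53 in WKY rats, and the means were 1912 ± 434 in SH-DE, 2684 ± 338 in SH-air, 1704 ± 138 in WKY-DE and 2473 ± 160.2 in WKY-air (DE over air −0.52 in log2 with SE 0.108, adjusted p = 0.105 by limma).

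Pgm1, phosphoglucomutase of glycogen metabolism, averaged 919 ± 149 in SH-DE, 1125 ± 51.7 in SH-air, 702 ± 67.04 in WKY-DE and 1157 ± 114 in WKY-air (DE over air −0.50 in log2 with SE 0.102, adjusted p = 0.105 by limma), while its second and brighter probe set was at −0.05 over both strains. Zfp703, a zinc finger repressor, averaged 87.4 ± 48.2 in SH-DE, 196 ± 27.7 in SH-air, 96.1 ± 51.95 in WKY-DE and 175 ± 20.98 in WKY-air (DE over air −1.002 in log2 with SE 0.212, adjusted p = 0.105 by limma), with −1.13 in SH and −0.88 in WKY rats. Sox11, a factor of the Sox family mostly of the embryo, lay at or below the offset on most arrays, with 2.63–8.96 in SH-DE, 12.8–27.6 in SH-air, 2.77–6.13 in WKY-DE and 3.75–35.9 in WKY-air, and its fold change of −0.79 was −1.88 with an offset of 1 and −0.30 with an offset of 62.5. Of these 20 genes, 10 did not overlap in either strain, 12 did not in SH and 18 did not in WKY rats. Over all probe sets 0.378% (60 of 15866) did not overlap in the same direction in both strains, 4.08% (648) did not in SH and 12.7% (2009) did not in WKY rats in either direction. The 20 were chosen by low p and the same sign on these same arrays. Little overlap follows from that choice and is no further evidence for them. The fold change was larger in WKY rats for 18 of the 20 and larger in SH rats for 2, Sox11 and Zfp703. The lowest adjusted p of the interaction among them was 0.255, that of Tmco3, so that for none was a difference between the strains shown.

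Some further genes passed limma's test among the 9520 brighter probe sets and not over all probe sets, and they were picked here after their values were seen. Fold changes close to each other in the strains were found for Dock1, an activator of Rac, at 0.38 in SH and 0.40 in WKY rats (adjusted p = 0.0413), and for Tsn, the nucleic acid binding protein translin, at 0.42 in SH and 0.36 in WKY rats (adjusted p = 0.0413). Cdk9, the kinase that releases paused RNA polymerase II, was at 0.46 in SH and 0.62 in WKY rats (adjusted p = 0.0409), and Prps1, which makes phosphoribosyl pyrophosphate for nucleotide synthesis, at 0.37 in SH and 0.54 in WKY rats (adjusted p = 0.0409). Maf, a transcription factor of the leucine zipper class, had the larger fold change in SH rats, 0.95 in SH and 0.42 in WKY rats (adjusted p = 0.0448). Trpm7, a channel for magnesium and calcium joined to a kinase, had it in WKY rats, 0.37 in SH and 1.29 in WKY rats (adjusted p = 0.0409). Lower in DE were Vps37b, of a complex that sorts membrane cargo, at −0.38 in SH and −0.40 in WKY rats (adjusted p = 0.0475), and Cdip1, a pro-apoptotic target of p53, at −0.46 in SH and −0.47 in WKY rats (adjusted p = 0.0463). Of the 37 probe sets called there 34 had an unadjusted p under 0.05 in each strain, 31 had the larger fold change in WKY rats and 7 had an unadjusted interaction p under 0.05. These p-values come from the same arrays as the calls.

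The DE effect within each strain was also tested, in the fit of 4 group means whose spread is estimated over all 16 arrays. A fit on the WKY arrays alone called fewer probe sets than that fit did in WKY rats, as given below. In SH rats limma called 0 probe sets (0%) between SH-DE and SH-air, with 977 at an unadjusted p under 0.05, and in WKY rats it called 298 (1.88%), with 3245 at an unadjusted p under 0.05. The WKY count was 43 to 123 without any 1 of the 4 WKY-DE arrays or WKY-air replicate 1, 2 or 4, 194 without SH-air replicate 4, 91 after quantile normalization and 8 with the atrial markers as a covariate. A joint test that takes the larger p of the 2 strains and requires the same sign called 0 probe sets (0%) after adjustment. Without adjustment, 163 probe sets (1.03%) had a p under 0.05 in both strains in the same direction, 111 higher (0.7%) and 52 lower (0.328%) in DE. In opposite directions there were 87 (0.548%), 34 higher in SH-DE and 53 higher in WKY-DE. DE and air arrays that did not overlap in either strain numbered 60 in the same direction (0.378%), 33 higher (0.208%) and 27 lower (0.17%), and 34 in opposite directions (0.214%). The genes of lowest joint p were Lrch3, Trappc2, Chrna7, Nktr and Etfbkmt among those higher, with p of 0.00127 to 0.00277, and Fzd2, Sox10, Gna12, Rnf10 and Sptb among those lower, with p of 0.00147 to 0.00599. The p-values are not adjusted, and the WKY and SH comparisons share no arrays.

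Over the whole array the fold changes of the strains were nearly unrelated, although probe sets are not replicates of one another. The same sign was found for 52.4% of probe sets, 5085 higher and 3233 lower in both strains, against 7548 with opposite signs, and Pearson's r over the 15866 probe sets was 0.0278. The median fold change was 0.00 in SH and 0.10 in WKY rats on the log2 scale. After quantile normalization it was −0.003 in SH and 0.006 in WKY rats. A fold change beyond 0.5 in both strains was seen for 201 probe sets that were higher and 85 that were lower in DE in both, and for 289 with opposite signs. Beyond 1.0 these numbers were 3, 2 and 9. The strain by DE interaction, which tests the difference itself, called 1 probe set (0.0063%), that of Fam84b, and had 1976 with an unadjusted p under 0.05. Without 1 array at a time that number of calls was 0 to 6.

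**Figure D2:**
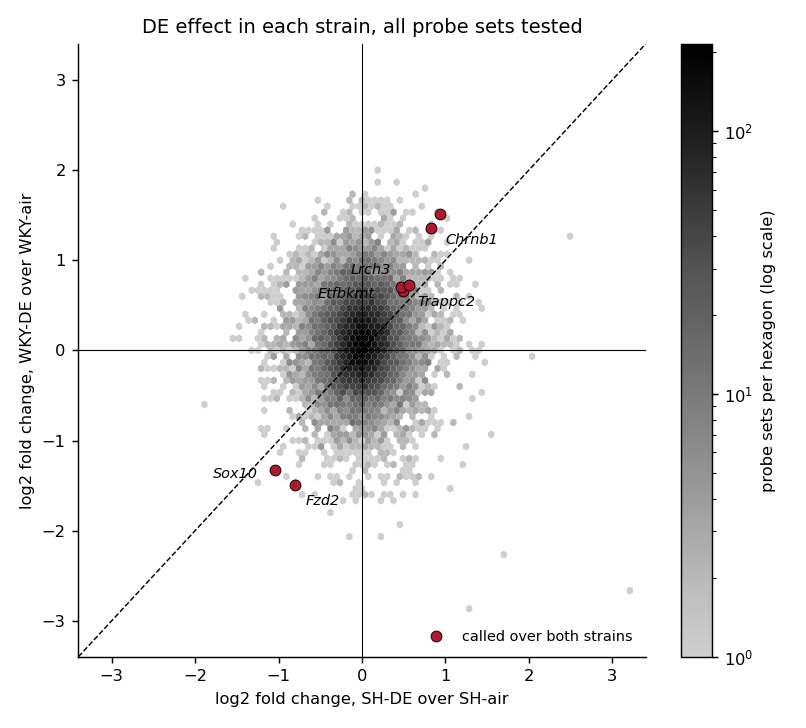
Log2 fold change of DE over air in SH rats (x axis) and in WKY rats (y axis) for the 15866 probe sets, as hexagons shaded by their number on a log scale. The 7 probe sets called over both strains are red, 5 in the upper right and 2 in the lower left, and the dashed line marks equal change in both strains.

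Among clock-controlled genes the larger number was higher in DE, and none was called. Of the 12 genes measured that peak with Dbp and the Per genes, 7 had an unadjusted p under 0.05 with a higher signal in DE, where 9.39% of the 10411 genes measured did, and 0 had one with a lower signal, where 4.82% did. The median fold change was 0.36, with 0.25 in SH and 0.70 in WKY rats, beside 0.04, 0.01 and 0.08 over all genes. In both strains 7 of the 12 were higher in DE and 0 were lower, beside 32.3% and 20.7% of all genes. After quantile normalization 5 had an unadjusted p under 0.05 and the median was 0.29. Without both DE arrays numbered 3, an alternative added after seeing the data, there were 6 and the median was 0.46.

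Dbp, a transcription factor whose level follows the clock closely, was 276, 379.8, 459 and 265 in SH-DE and 292, 217, 175 and 295 in SH-air. WKY rats had 461, 583, 455 and 501 in WKY-DE and 212, 112, 231 and 146 in WKY-air. The WKY groups were far apart, and in SH rats 2 of the DE arrays lay within the air range (DE over air 0.97 in log2 with SE 0.204, adjusted p = 0.105 by limma). The fold change was 0.46 in SH and 1.47 in WKY rats, with an unadjusted interaction p of 0.00802 (adjusted p = 0.258, limma). Nr1d2, the repressor REV-ERBβ, was 757, 1124, 858 and 999.7 in SH-DE and 876, 757, 682 and 832 in SH-air on its brightest probe set. It was 1161, 1105, 1435 and 1000.2 in WKY-DE and 486, 419, 800.4 and 594 in WKY-air in WKY rats. Again the WKY groups did not overlap and the SH groups did (DE over air 0.64 in log2 with SE 0.165, adjusted p = 0.166 by limma, 0.23 in SH and 1.04 in WKY rats). A second probe set of Nr1d2 was 0.38 in SH and 0.73 in WKY rats. Per2, a repressor of the clock loop, was at 0.27 in SH and 0.86 in WKY rats, and Nr1d1, or REV-ERBα, at 0.36 and 0.77. Per1 was at 0.81 in SH and −0.69 in WKY rats, and Per3, which was near the offset, at 0.28 and −0.91. Of 3 genes measured in the opposite phase, the activator Bmal1 was at −0.24 in SH and −0.38 in WKY rats. Clock went the other way, at 0.20 in SH and 0.24 in WKY rats, and Nfil3 was at −0.15 and −0.05. Per2, Nr1d1, Per1, Per3, Bmal1, Clock and Nfil3 were picked after their values were seen. The hour of necropsy was not used here, and its part was not tested.

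**Figure D3:**
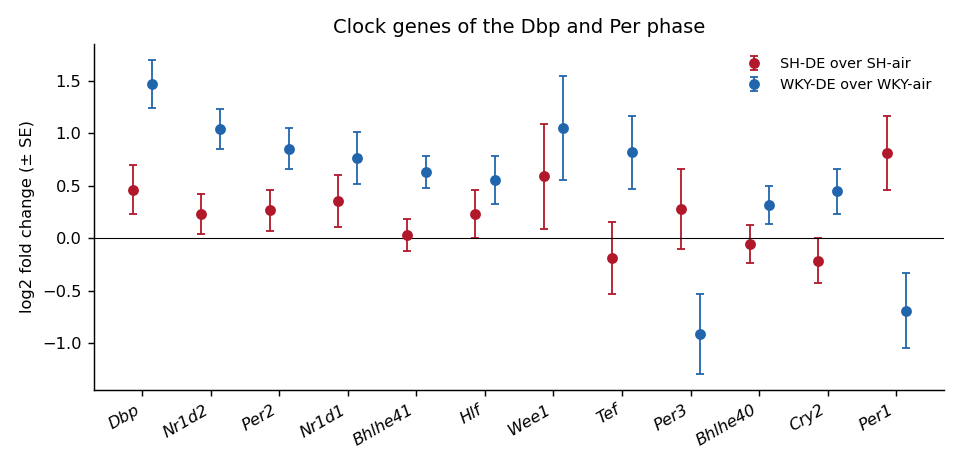
Log2 fold change of DE over air (± SE) of the 12 clock genes that peak with Dbp and the Per genes, ordered by the p over both strains, in SH and in WKY rats. The first 7 genes from the left, Dbp to Wee1, lie above 0 in both strains, and the WKY value is above the SH value in each of them.

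Rbm3, an RNA-binding protein induced by cold, was 343, 513, 686 and 419.9 in SH-DE and 418, 366, 327 and 269.7 in SH-air. The WKY arrays gave 784, 701, 1089 and 710.0 in WKY-DE and 373, 449, 503 and 437 in WKY-air. All WKY-DE arrays and 3 of the 4 SH-DE arrays were above the air arrays of their strain (DE over air 0.66 in log2 with SE 0.150, adjusted p = 0.132 by limma, 0.46 in SH and 0.86 in WKY rats). Heat shock proteins lay on the other side. Of 21 measured, 8 had an unadjusted p under 0.05 with a lower signal in DE and 0 with a higher one, and none was called. Over all genes 4.82% were lower and 9.39% higher at that p. Hspb1, a small heat shock protein, was 5561, 5730.3, 5392 and 4131 in SH-DE and 7676, 7598, 6959.9 and 5155 in SH-air. In WKY rats it was 3441, 3906, 3688 and 2866 in WKY-DE and 6071, 6370.1, 4311 and 5628 in WKY-air. SH-air replicate 4, the lowest of its group, lay within the SH-DE range, and the WKY groups were apart (DE over air −0.53 in log2 with SE 0.123, adjusted p = 0.132 by limma). Cryab, the αB-crystallin of heart muscle, did not overlap in either strain, with 25969.9–31988 in SH-DE, 33172–36005 in SH-air, 25785–35493 in WKY-DE and 37435–54509.7 in WKY-air (DE over air −0.40 in log2 with SE 0.101, adjusted p = 0.161 by limma). The list's median was −0.10, and −0.07 after quantile normalization, when 3 had an unadjusted p under 0.05. Hspb1 was then at −0.47 and Cryab at −0.11.

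**Figure D4:**
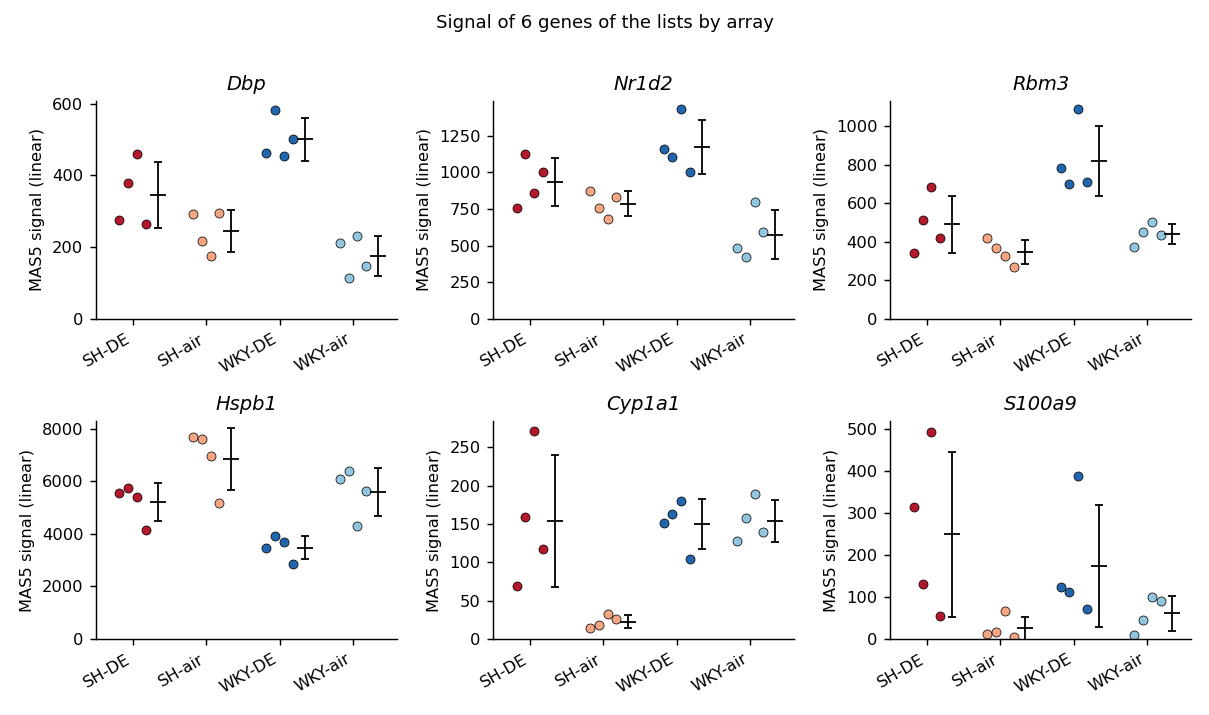
MAS5 signal on a linear axis of Dbp, Nr1d2, Rbm3, Hspb1, Cyp1a1 and S100a9 by group from SH-DE to WKY-air, with single arrays as points and the mean with its SD (n = 4) beside them. Dbp, Nr1d2 and Rbm3 of WKY-DE lie above and Hspb1 below the WKY-air arrays with less distance between the SH groups, while Cyp1a1 is higher on each SH-DE array than on the SH-air arrays.

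Antioxidant genes leaned the same way as the heat shock proteins. Of 31 measured, 6 had an unadjusted p under 0.05 with a lower signal in DE and 1 with a higher one, beside 4.82% and 9.39% of all genes. None was called, and the median was −0.12 (−0.04 in SH and −0.16 in WKY rats). Gstm1, a glutathione transferase, averaged 659.6 ± 98.3 in SH-DE, 783 ± 60.3 in SH-air, 423 ± 73.5 in WKY-DE and 602 ± 76.4 in WKY-air (DE over air −0.38 in log2 with SE 0.108, adjusted p = 0.175 by limma). Prdx2, a peroxiredoxin, averaged 9695 ± 360.1 in SH-DE, 10875 ± 1619.7 in SH-air, 8202 ± 307 in WKY-DE and 11093 ± 768 in WKY-air (DE over air −0.29 in log2 with SE 0.0866, adjusted p = 0.178 by limma), and after quantile normalization it was at −0.16. In both strains 15 of the 31 were lower and 5 higher in DE, beside 20.7% and 32.3% of all genes. Hmox1, heme oxygenase-1, was 180.3, 182, 149 and 197 in SH-DE and 208, 262, 164 and 156 in SH-air. It was 82.5, 104, 109.6 and 189 in WKY-DE and 179, 113, 132 and 157 in WKY-air in WKY rats. DE and air overlapped in both strains, and the fold changes were −0.13 in SH and −0.27 in WKY rats (DE over air −0.20 in log2 with SE 0.150, adjusted p = 0.577 by limma).

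Genes of oxidative phosphorylation were mostly a little lower in DE in the values as deposited, and none of them was called. Of 63 genes of oxidative phosphorylation 42 were lower and 3 higher in both, 16 had an unadjusted p under 0.05 with a lower signal and 0 with a higher one, and the median was −0.16 (−0.07 in SH and −0.26 in WKY rats). Over all genes 20.7% were lower and 32.3% higher in both strains, and 4.82% were lower and 9.39% higher at that p. Atp5f1a, the α subunit of ATP synthase, averaged 21955 ± 2208 in SH-DE, 25722 ± 3507 in SH-air, 23035 ± 3424 in WKY-DE and 31944 ± 1274 in WKY-air (DE over air −0.35 in log2 with SE 0.0965, adjusted p = 0.170 by limma). For Atp5mc3, a subunit of the membrane ring of that enzyme, the means were 21276 ± 1279 in SH-DE, 25573 ± 1751 in SH-air, 22600.4 ± 3809 in WKY-DE and 28867 ± 5176 in WKY-air (DE over air −0.31 in log2 with SE 0.0974, adjusted p = 0.212 by limma). To 2 decimals both strains had the same fold change for Idh3a, of isocitrate dehydrogenase in the citric acid cycle, at −0.30 in SH and −0.30 in WKY rats (−0.30, adjusted p = 0.220 by limma over both), and nearly so for Idh2, at −0.24 in SH and −0.25 in WKY rats (−0.25, adjusted p = 0.201 by limma). Of 17 cycle genes 4 and of 23 genes of glycolysis and glycogen 7 had an unadjusted p under 0.05 with a lower signal, and 0 and 1 with a higher one. In glycolysis Eno1, an enolase, averaged 9345 ± 1476 in SH-DE, 10986 ± 391 in SH-air, 2946 ± 145 in WKY-DE and 3925 ± 51.7 in WKY-air (DE over air −0.33 in log2 with SE 0.0829, adjusted p = 0.155 by limma), and Aldoa, an aldolase, was at −0.23 in SH and −0.34 in WKY rats (−0.28, adjusted p = 0.212 by limma over both). Among 30 genes of fatty acid uptake and oxidation 6 were lower and 3 higher at that p. Cpt1b, which carries fatty acids into the mitochondrion, was at −0.30 in SH and −0.22 in WKY rats (−0.26, adjusted p = 0.233 by limma over both), and Fabp3, the fatty acid binding protein of heart, at −0.21 in SH and −0.33 in WKY rats (−0.27, adjusted p = 0.247 by limma over both).

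Many of these genes are among the brightest on the array, and the brightest probe sets as a whole were lower in DE. The 159 brightest (1%) had a median fold change of −0.19, with −0.14 in SH and −0.25 in WKY rats, 65 of them had an unadjusted p under 0.05 with a lower signal in DE and 0 with a higher one, and 78.0% had the same sign in both strains. In WKY rats the probe sets between the 20th and the 30th percentile of brightness were at 0.28, and in SH rats at −0.03. After quantile normalization the median of the brightest 1% was 0.00. The median of oxidative phosphorylation was then −0.01 with 1 gene lower and 1 higher at an unadjusted p under 0.05, that of glycolysis −0.02, that of the citric acid cycle 0.07, and Idh2 (0.06) and Fabp3 (0.01) changed sign. Atp5f1a was then at −0.12, Atp5mc3 at −0.07, Aldoa at −0.04 and Cpt1b at −0.17. The part of brightness in the lists was not tested.

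**Figure D5:**
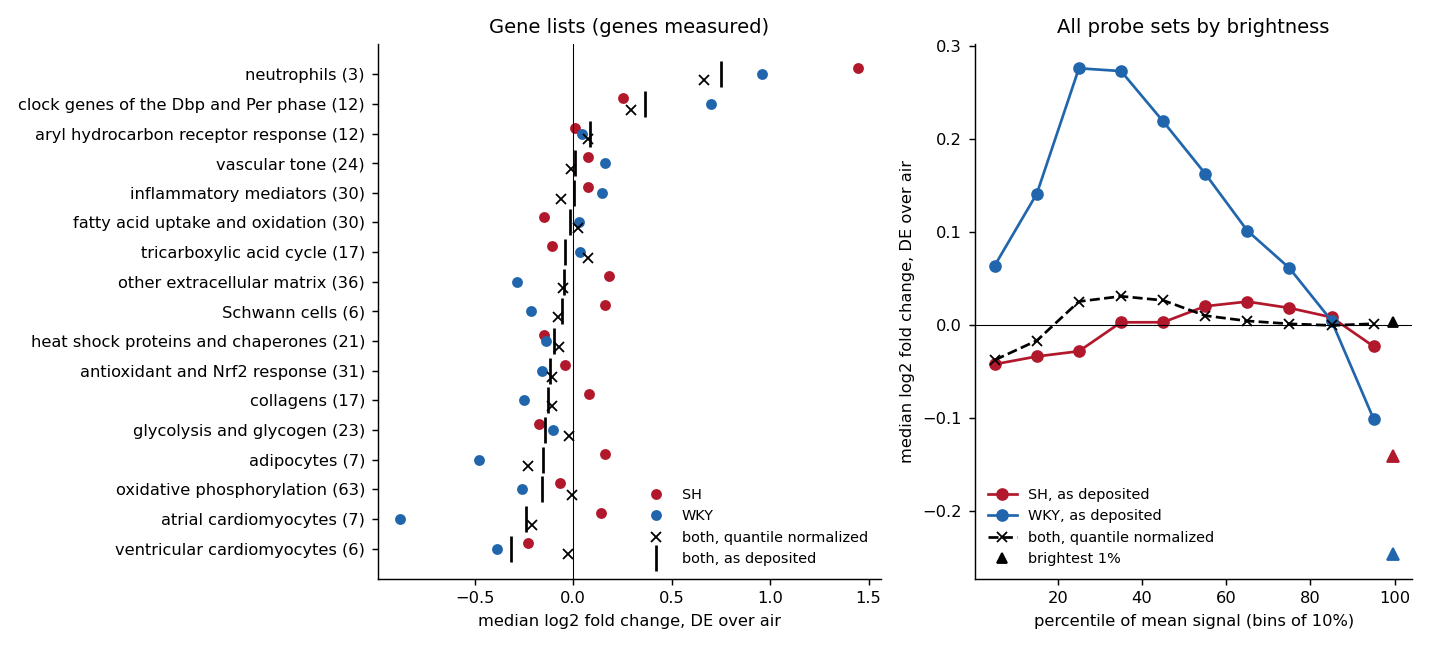
Left, median log2 fold change of DE over air of 17 gene lists in SH and in WKY rats and over both, as deposited and after quantile normalization, with the number of genes measured in brackets. Right, the same median over all probe sets in bins of 10% of mean signal, with triangles for the brightest 1%, where the values as deposited are −0.14 in SH and −0.25 in WKY rats and the quantile normalized one is 0.00.

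Targets of the aryl hydrocarbon receptor did not pass the test over both strains. Cyp1a1, the monooxygenase that this receptor induces, was 68.8, 159, 271 and 118 in SH-DE and 13.6, 17.99, 32.3 and 25.7 in SH-air. The WKY arrays gave 152, 163, 179 and 104 in WKY-DE and 128, 158, 189.6 and 139 in WKY-air. SH-DE arrays stood above SH-air with no overlap, to the level that both WKY groups had. Over both strains it did not pass the test (DE over air 0.99 in log2 with SE 0.330, adjusted p = 0.225 by limma), and the fold changes were 2.03 in SH and −0.05 in WKY rats (interaction unadjusted p = 0.000172, adjusted p = 0.142, limma). The receptor Ahr itself had fold changes of 0.12 in SH and 1.65 in WKY rats (0.89, adjusted p = 0.264 by limma over both), while its other probe set was at −0.36 in SH and 0.93 in WKY rats, 0.28 over both. Of the 12 genes of this list 2 had an unadjusted p under 0.05, these 2, both with a higher signal in DE, and the median was 0.09. Over all genes 9.39% were higher and 4.82% lower at that p.

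Neutrophil markers had the largest median fold change of the 40 lists over both strains, 0.75, on 3 genes and with wide scatter. S100a9, a calcium-binding alarmin of neutrophils, was 315, 131, 493 and 55.6 in SH-DE and 12.3, 16.9, 66.6 and 5.44 in SH-air. In WKY rats it was 123, 111, 388 and 71.7 in WKY-DE and 9.42, 45.6, 99.2 and 89.3 in WKY-air. SH-DE replicate 4 lay within the SH-air range and WKY-DE replicate 4 within the WKY-air range, while replicate 3 was the highest array in each of the 4 groups (DE over air 1.89 in log2 with SE 0.477, adjusted p = 0.159 by limma, 2.51 in SH and 1.26 in WKY rats). Its partner S100a8 was at 1.45 in SH and 0.06 in WKY rats (0.75, adjusted p = 0.338 by limma over both). These 2 of the 3 markers were higher in DE in both strains, while Cxcr2 was higher in WKY rats and not in SH rats. The median of the 3 was 1.45 in SH and 0.96 in WKY rats. The summed signal of the 3 neutrophil markers measured, S100a8, S100a9 and Cxcr2, was 112–588 in SH-DE, 41.2–149 in SH-air, 150.2–492 in WKY-DE and 81.7–197 in WKY-air. Of 30 inflammatory mediators 5 had an unadjusted p under 0.05 with a higher signal in DE and 1 with a lower one, and the median was 0.00. The shares over all genes were 9.39% higher and 4.82% lower. Tlr4, a receptor for bacterial lipopolysaccharide, averaged 141 ± 14.1 in SH-DE, 100.3 ± 15.4 in SH-air, 141 ± 15.7 in WKY-DE and 116 ± 19.9 in WKY-air (DE over air 0.35 in log2 with SE 0.0985, adjusted p = 0.172 by limma).

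Of 24 genes of vascular tone 2 had an unadjusted p under 0.05 with a higher and 2 with a lower signal, and none was called. The shares over all genes were 9.39% higher and 4.82% lower. Nos3, the endothelial nitric oxide synthase, averaged 211 ± 33.9 in SH-DE, 255 ± 35.5 in SH-air, 268 ± 38.96 in WKY-DE and 377 ± 38.7 in WKY-air (DE over air −0.36 in log2 with SE 0.106, adjusted p = 0.175 by limma), with −0.26 in SH and −0.47 in WKY rats. Gucy1b1, a subunit of the soluble guanylate cyclase that nitric oxide activates, was at 0.45 in SH and 0.28 in WKY rats (0.36, adjusted p = 0.204 by limma over both), and its other probe set was at 0.05. Edn1, which encodes endothelin-1, was 145, 111, 106 and 94.7 in SH-DE and 130.5, 153, 113 and 92.7 in SH-air. It was 238, 154, 139 and 259.9 in WKY-DE and 99.9, 111, 96.6 and 121 in WKY-air in WKY rats. The WKY groups were apart and the SH groups overlapped (DE over air 0.34 in log2 with SE 0.172, adjusted p = 0.401 by limma, −0.08 in SH and 0.76 in WKY rats). The interaction had an unadjusted p of 0.00864 and an adjusted p of 0.261 (limma). Endothelial markers were at a median of −0.04.

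Matrix gene lists had medians of opposite sign in the strains in the values as deposited, a difference that was not tested. The median of 17 collagens was 0.08 in SH and −0.25 in WKY rats, that of 36 other matrix genes 0.18 and −0.29, and that of 13 fibroblast markers 0.15 and −0.44. With the atrial markers as a covariate the collagens were at −0.03 in SH and −0.15 in WKY rats, no longer of opposite sign, and the other matrix genes at 0.08 and −0.17. None was called over both strains. Col1a1, of fibrillar collagen, was at −0.15 in SH and −0.78 in WKY rats (−0.47, adjusted p = 0.270 by limma over both), while its second probe set was at 0.20 in SH and −0.29 in WKY rats. Col4a2, of basement membrane, was at −0.37 in SH and −0.45 in WKY rats (−0.41, adjusted p = 0.315 by limma). Serpinh1, a chaperone of collagen, was lower on the mean in both, at −0.30 in SH and −0.47 in WKY rats, and averaged 2459 ± 261 in SH-DE, 3013 ± 83.2 in SH-air, 1918 ± 239 in WKY-DE and 2673 ± 465 in WKY-air (DE over air −0.38 in log2 with SE 0.0971, adjusted p = 0.161 by limma). Mmp3, stromelysin-1, was at 0.64 in SH and 0.57 in WKY rats (0.60, adjusted p = 0.224 by limma over both). The summed signal of the fibroblast markers was 30331–33798 in SH-DE, 26567–29751 in SH-air, 30469.9–37614 in WKY-DE and 40029–47227 in WKY-air.

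Some atrial markers had fold changes of opposite sign in the strains. The regulatory light chain Myl7 was at 3.18 in SH and −2.66 in WKY rats, the essential light chain Myl4 at 1.70 and −2.23, and the calcium pump regulator Sln at 1.29 and −2.85. The summed signal of the 7 atrial markers measured was 14125–35616 in SH-DE, 13546–25161 in SH-air, 14045–43863 in WKY-DE and 34433–98041 in WKY-air. Of the 7, 2 had the same sign in both strains, Kcna5 higher in DE at 0.14 in SH and 0.58 in WKY rats and Gja5 lower at −0.02 in SH and −0.12 in WKY rats. None of the 7 passed the interaction test, with a lowest adjusted p of 0.226 for Myl7 (limma). With the mean of Myl7, Myl4 and Sln as a covariate the medians over both strains of all 40 gene lists kept their sign, while after quantile normalization 9 of the 40 had the opposite sign, and with the covariate 0 probe sets were called over both strains. Since that mean was higher with DE in SH and lower in WKY rats, it could hardly move a median over both strains. The atrial markers of lowest p over both strains were Kcna5, a potassium channel (0.36, adjusted p = 0.321 by limma), and Dkk3, a secreted protein (−0.24, adjusted p = 0.531 by limma). Ventricular markers had a median of −0.32 (−0.23 in SH and −0.39 in WKY rats), and 4 of the 6 measured had an unadjusted p under 0.05 with a lower signal in DE, where 4.82% of all genes did. Tnnt2, cardiac troponin T, was at −0.35 in SH and −0.50 in WKY rats (−0.42, adjusted p = 0.170 by limma over both, with a dim second probe set at 0.33), and Myl3, the ventricular essential light chain, at −0.31 in SH and −0.39 in WKY rats (−0.35, adjusted p = 0.172 by limma). They are as bright as the metabolic genes, and after quantile normalization their list had a median of −0.03, Tnnt2 was at −0.09 and Myl3 at −0.06. The summed signal of the ventricular markers was 141476–175261 in SH-DE, 175674–190940.0 in SH-air, 133507–205461 in WKY-DE and 181512–256600.0 in WKY-air. Among 7 adipocyte markers Lipe was the member of lowest p, Fabp4 was at 0.16 in SH and 0.28 in WKY rats (0.22, adjusted p = 0.301 by limma over both), and the median was 0.16 in SH and −0.48 in WKY rats. Over all 40 lists, 1 of 599 genes measured, Sox10, was called.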

How the data were processed

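RNA from the left ventricles of 16 rats was measured on Affymetrix Rat 230A arrays. The authors extracted the deposited values with MAS5, and they are intensity values on a linear scale, 1 per probe set, with each array scaled to a trimmed mean near 500, which fixes the average of an array and leaves the shape of its distribution as measured. The MAS5 version is not given in the sources used here, and the normalized values on which the paper's own tests ran were not used here.

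Of 15923 probe sets 57 controls were left out. Platform annotation gave 1 gene for 12783 of the 15866 tested (10411 genes), several for 312 and no entry for 2771, and 12748 were checked against RefSeq by gene ID. Values were taken as log2(signal + 16.1) and fitted with limma 3.58.1 in R 4.3.3, with strain and exposure as additive terms, or with 4 group means for single strains, the interaction and the joint test of both strains. Calls needed a Benjamini-Hochberg adjusted p under 0.05 and a p under 0.01. The contrasts of the strains share no arrays but share 1 estimate of the spread. The fit was tested on simulated data. Offset, normalization, filter, moderation, array weights, replicate block, an atrial covariate and single arrays were varied.

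The genes named were the 10 of lowest p in each direction with the same sign in both strains, the 5 of lowest joint p, the 5 of lowest p among bright probe sets, up to 2 of lowest p from each of 17 lists, and 5 genes set by name, Hmox1, Edn1, Nos3, Rbm3 and Cyp1a1. Other genes were picked after their values were seen. Members and lists were chosen with earlier results of these data known. Promoters were read from RefSeq (GRCr8).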

Additional observations from a re-analysis of the deposited data

Results flagged for a closer look

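The DE effect differed between the strains by the interaction test for 1 probe set, that of Fam84b, which averaged 20.7 ± 7.90 in SH-DE, 10.4 ± 3.88 in SH-air, 8.67 ± 3.54 in WKY-DE and 48.9 ± 5.67 in WKY-air (SD, n = 4). The difference of the log2 fold changes, SH minus WKY, was 1.86 (SE 0.237, limma adjusted p = 0.020), with 0.46 in SH and −1.40 in WKY rats. Signals of 3 of the groups lay near the offset. No probe set passed the interaction test without SH-air replicate 2 or 4, SH-DE replicate 1 or 3, WKY-air replicate 4 or WKY-DE replicate 2 or 3. The cause was not tested.

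For the genes named, 16 of 220 groups of 4 arrays had 1 array far from the other 3 by Dixon's ratio at the 95% level, where chance gives about 1 in 20. Low single arrays in DE were Pgm1 at 602 in WKY-DE replicate 2 (the others 728–746), Sptb at 369 in WKY-DE replicate 3 (489–515), Nos3 at 161 in SH-DE replicate 2 (225–235), Cpt1b at 4684 in SH-DE replicate 4 (6176–6470.3), Lipe at 196 in SH-DE replicate 3 (340.4–365) and Gfap at 93.9 in SH-DE replicate 2 (145–158). High ones in DE were Sox11 at 8.96 in SH-DE replicate 3 (2.63–3.54), Dkk3 at 1931 in SH-DE replicate 3 (950.3–1019.6) and Atp5mc3 at 28279.7 in WKY-DE replicate 3 (20302–21281.5).

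In air, low arrays were Gna12 at 2406 in WKY-air replicate 3 (2664–2705), Ahr at 14.3 in WKY-air replicate 2 (86.3–112), Gucy1b1 at 162 in WKY-air replicate 1 (199–206), Fabp3 at 31706 in SH-air replicate 2 (32838–32999) and Eno1 at 3848 in WKY-air replicate 4 (3943–3957). High ones were Kcna5 at 188 in SH-air replicate 4 (128–133) and S100a8 at 39.3 in SH-air replicate 4 (4.03–7.76). Of the 2 DE arrays with the highest atrial markers, SH-DE replicate 3 accounts for 3 of the 16 and WKY-DE replicate 3 for 2.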

How the results depend on the processing

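The number of probe sets called over both strains, 7, was 6 with an offset of 1, 7 with an offset of 62.5, 7 with array weights and 9 with genes in place of probe sets. It was 2 after quantile normalization, 37 without the dimmest 40% of probe sets, 43 with an intensity trend and robust moderation and 23 with 4 group means. It was 0 (limma, with 1961 at an unadjusted p under 0.05) with the replicate block, 0 (2195) with the atrial covariate, 0 (2072) without both DE arrays numbered 3 and 0 at an adjusted p under 0.01. SH arrays alone gave 0 and WKY arrays alone 35. Leaving out 1 array at a time gave 0 to 9. The number with a p under 0.05 and the same sign in both strains, 163, was 72 with the atrial covariate, 119 after quantile normalization and 112 to 202 without 1 array. The joint test called 0 under each alternative. The interaction, with 1 called, gave 6 after quantile normalization, 0 with the replicate block and 0 to 6 without 1 array. The share of probe sets with the same sign, 52.4%, was 54.2% without the dimmest probe sets and 48.4% to 55.2% without 1 array, the lowest without SH-air replicate 3. Sox10, the 1 list gene called, was lost with the offset of 62.5, after quantile normalization and with the atrial covariate (0 each), without both DE arrays numbered 3 (0, an alternative chosen after seeing the data), and 0 to 1 list genes were called without 1 array. Over 55 named genes and 1366 values, 2 reversed sign, Fabp3 (0.0058) and Idh2 (0.061), both after quantile normalization. The cause of these changes was not tested. The labels do not say whether the replicate numbers pair the samples. DE and air arrays of the same number and strain had deviations that correlated at −0.03 to 0.05, and not every array correlated best with its own number. Such correlations over all probe sets cannot decide whether samples were paired. Depth is unknown for arrays, and genes with signals near the offset of 16.1, such as Sox11 and Chrnb1, are limited by it.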

Other observations

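Several gene groups that no comparison above describes held no called gene, and the genes named here were picked after their values were seen. Of 6 hypertrophy markers measured 4 were lower and 0 higher in DE in both strains, with a median log2 fold change of −0.28. Over all genes 20.7% were lower and 32.3% higher in both. Acta1, skeletal α-actin, was at −0.28 in SH and −0.56 in WKY rats, and Ankrd1, a stretch-responsive ankyrin repeat protein, at −0.32 in SH and −0.37 in WKY rats. After quantile normalization the median of this list was −0.01. Of 9 markers of smooth muscle and pericytes 2 had an unadjusted p under 0.05 with a lower signal in DE and 0 with a higher one, beside 4.82% and 9.39% of all genes. Their median was −0.20 (−0.28 after quantile normalization). Acta2, smooth muscle α-actin, was at −0.32 in SH and −0.43 in WKY rats, and Smtn, smoothelin, at −0.22 in SH and −0.41 in WKY rats.

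Of 12 genes that glucocorticoids induce or repress, 3 had an unadjusted p under 0.05 with a higher and 2 with a lower signal, beside 9.39% and 4.82% of all genes. The median of the list was 0.19, with 0.22 in SH and −0.02 in WKY rats. The 3 genes named next come from the higher side, and the 2 lower ones are not named here. Tsc22d3, known as GILZ, was at 0.30 in SH and 0.24 in WKY rats, Klf9 at 0.22 in SH and 0.21 in WKY rats and the kinase Sgk1 at 0.22 in SH and 0.19 in WKY rats, so that both strains were at nearly the same value for each of the 3. Of 13 interferon-induced genes 3 were higher and 0 lower at that p, among them Oas1a, an oligoadenylate synthetase, at 0.25 in SH and 0.52 in WKY rats, and Usp18, which removes ISG15, at 0.16 in SH and 0.25 in WKY rats. The median of the 13 was 0.14, with 0.02 in SH and 0.25 in WKY rats. After quantile normalization 1 of the 13 was higher and 0 lower at that p. Of 29 genes of calcium handling and ion channels 3 were higher and 3 lower at that p, 9 were higher and 11 lower in both strains, and the median was −0.03. After quantile normalization 0 were higher and 3 lower at that p, and the median was 0.03. Of the lower ones, the calcium pump Atp2a2 of the sarcoplasmic reticulum was at −0.32 in SH and −0.39 in WKY rats, and its regulator Pln at −0.25 in SH and −0.24 in WKY rats. Of 13 genes of endoplasmic reticulum stress and 11 macrophage markers 0 had an unadjusted p under 0.05 (limma).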
